A study of Homo sapiens with 8 samples.

Results

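miR-630, miR-198, miR-601 and miR-765 are mature human miRNAs that the study lists as higher after UNC1999. Earlier work linked them to low levels, DNA methylation or a rise after demethylating drugs in multiple myeloma (MM). They were taken by name from the scanner output of each array, 4 of 2549 human miRNAs, with 10 of 5893 human probes. Because they were chosen for this contrast on these same arrays, their values and calls are given as a description, with no p, and nothing is supported with them. Mature miRNAs were measured on 8 single-colour arrays of INA-6, an established MM cell line that is grown with interleukin-6. Of these, 4 arrays held RNA of cells given DMSO and 4 RNA of cells given 1 μM of UNC1999, a compound that blocks the methyltransferase EZH2, both for 120 h. The titles call the 4 samples of each group biological replicates and the controls DMSO. The protocol text of the same labels gives UNC2400, an inactive compound, for the controls instead, and the titles were followed here. All statements hold for 1 cell line at 1 dose and 1 time.

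A miRNA is a short RNA that guides a silencing protein to messenger RNAs, mainly through its seed, bases 2 to 8 from the 5′ end. MiRNA genes can be kept silent by methyl groups on the cytosines of their promoter or by the histone mark that EZH2 places, and many miRNA genes lie inside a longer gene. MiR-198 is known to come from the untranslated end of the transcript of FSTL1, a secreted glycoprotein, and in skin the choice between miRNA and protein changes during wound healing. MiR-630 is known from the response of cancer cells to DNA damage. RNA came from whole cultures, in which more cells with a miRNA and more copies per cell cannot be told apart. DNA methylation was not measured on these arrays, so that the name "silenced" rests on earlier work and not on the values below.

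The mature sequences are shown because each array probe reads this short stretch and because a shared seed would mean shared targets. They are those of RefSeq (GRCh38.p14), 5′ to 3′, with the seed in capitals, and all 4 names matched.
hsa-miR-630: aGUAUUCUguaccagggaaggu
hsa-miR-198: gGUCCAGAggggagauagguuc
hsa-miR-601: uGGUCUAGgauuguuggaggag
hsa-miR-765: uGGAGGAGaaggaaggugaug
No seed was shared among the 4. Of the 2370 mature human miRNAs of the table, 1 shared a seed with a member, miR-11181-3p with miR-765, and it has no probe on this array.
hsa-miR-11181-3p: aGGAGGAGgaggucaggc
The letters of the miR-765 seed, GGAGGAG, also close miR-601, at positions 16 to 22 from its 5′ end, outside its seed. They occur in 21 mature miRNAs, 0.886% of the table. The share of purines (A or G) was 59.1% in miR-630, 63.6% in miR-601, 68.2% in miR-198 and 85.7% in miR-765, against a median of 50.0% over the table. These shares lay at percentiles 67.6, 77.6, 85.2 and 99.5 of the table in the same order.

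In the same build, mature miR-630 lies at chr15:72587277-72587298 on the plus strand, within ARIH1. MiR-198 lies at chr3:120395703-120395724 on the minus strand, within FSTL1 and the transcribed pseudogene BTNL12P. MiR-601 lies at chr9:123402567-123402588 on the minus strand, within DENND1A, and miR-765 at chr1:156936156-156936176 on the minus strand, within ARHGEF11 and opposite in strand to LRRC71. Each protein-coding gene other than LRRC71 runs on the strand of the miRNA it holds. The 4 loci are on 4 different chromosomes.

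Before any scaling, all arrays are read against what they show where nothing is bound. Each miRNA had 20 spots per array, as 2 probes of 10 spots for miR-630, miR-198 and miR-765 and 4 probes of 5 spots for miR-601. The intensity of a spot has its background subtracted by the scanner software, which also marks the spots it takes to be well above background and the miRNAs it calls detected. Of 961 to 988 negative control spots per array, 0 were marked well above background, their medians lay between 1.16 and 2.79, and their 95th percentiles between 7.11 and 8.59. The groups differed in brightness as a whole. Over the 346 miRNAs that every array detected, the 75th percentile was 419 ± 119 (SD, n = 4) after DMSO against 664 ± 88.3 after UNC1999, and DMSO arrays 2 and 3 stood apart with 369 and 370 detected miRNAs against 474 to 500 on the other 6. With no scaling, 389 of the 456 miRNAs that all arrays of either group detected had a log2 fold change above 0. The unscaled rises of the 4 miRNAs given below thus stand beside a rise of most miRNAs. Absence of overlap in unscaled values was not counted over all miRNAs. The part that brightness has in the rises of dim miRNAs was not tested. INA-6 was checked with markers of blood cells, of which miR-142-3p, miR-142-5p and miR-150-5p were detected on all 8 arrays and miR-155-5p on 2 UNC1999 arrays and 0 DMSO arrays. The 7 markers of liver, muscle, neurons and epithelium were detected on 0 arrays.

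MiR-630 was detected on every array of both groups, with all 20 of its spots well above background on each. In unscaled intensity and in the order of replicates 1 to 4, its probes summed to 760, 452, 516 and 782 on the DMSO arrays and to 1905, 1990, 2018 and 1682 on the UNC1999 arrays. Every UNC1999 array lay above every DMSO array, and the 2 dimmest values were those of DMSO arrays 2 and 3, the arrays with the fewest detected miRNAs. The 2 probes gave nearly the same account, A_25_P00010248 with 313.7 ± 82.2 (SD, n = 4) after DMSO and 946.1 ± 74.4 after UNC1999, and A_25_P00010249 with 314.1 ± 86.0 and 952.8 ± 78.5. Both probes of miR-630 thus gave clear signal on the DMSO arrays, and binding of other RNAs to them was not tested. The study lists miR-630 for a rise in MM cell lines after a demethylating drug, and not as low or hypermethylated in MM.

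The scanner software called miR-198 detected on every UNC1999 array and on 0 DMSO arrays. Its probes summed to 10.66, 8.11, 2.21 and 11.8 on the DMSO arrays and to 33.5, 32.9, 39.4 and 29.1 on the UNC1999 arrays. The groups did not overlap, and 10, 7, 10 and 7 of 20 spots were well above background on the UNC1999 arrays against 0 on every DMSO array. All 34 of these spots, of 80 in the group, belonged to 1 of the 2 probes, A_25_P00012059, which read 9.26, 8.71, 2.85 and 10.0 after DMSO and 26.0, 24.5, 30.9 and 22.8 after UNC1999. The other probe, A_25_P00012058, read between -0.64 and 1.83 after DMSO and between 6.36 and 8.52 after UNC1999, with 0 of 40 spots well above background in either group. Its values after UNC1999 were thus higher than its own after DMSO on every array. They lay about the 95th percentile of the negative control spots, which is an unlike measure. Each value is a mean of 8 to 10 spots, while the percentile is over single spots, and means of control spots were not computed.

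MiR-601 was detected on DMSO arrays 1 and 4 and on all 4 UNC1999 arrays. Its probes summed to 57.5, 28.6, 16.9 and 46.5 on the DMSO arrays and to 95.5, 87.2, 101 and 72.3 on the UNC1999 arrays. DMSO arrays 2 and 3 were again the lowest, and no DMSO array reached the lowest UNC1999 array. On the DMSO arrays 3, 1, 0 and 0 of 20 spots were well above background, and on the UNC1999 arrays 15, 10, 16 and 7. The detection call and the spot marks did not run together in the controls, since DMSO array 4 was called detected with 0 marked spots and DMSO array 2 was not with 1. Each of the 4 probes was higher after UNC1999 without overlap before scaling, with group means of 8.34 to 10.6 after DMSO and 20.7 to 23.5 after UNC1999, and each had 10 to 15 of its 20 spots well above background over the UNC1999 arrays. MiR-601 therefore differed from miR-198 and miR-765, whose marked spots all lay on 1 probe.

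MiR-765 was detected on DMSO array 4 and on all 4 UNC1999 arrays. Its probes summed to 11.1, 6.88, 11.9 and 19.2 on the DMSO arrays and to 26.2, 46.1, 25.8 and 32.8 on the UNC1999 arrays. The groups did not overlap before scaling, and UNC1999 array 2 was the highest. Of 20 spots, 0, 0, 0 and 1 were well above background after DMSO and 7, 10, 5 and 10 after UNC1999, all on probe A_25_P00011342, which read 10.4 ± 3.19 (SD, n = 4) and 26.5 ± 8.20. Probe A_25_P00011341 read 1.89 ± 2.23 and 6.16 ± 1.55, with 0 of 40 spots well above background in either group, and its groups overlapped.

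**Figure D1:**
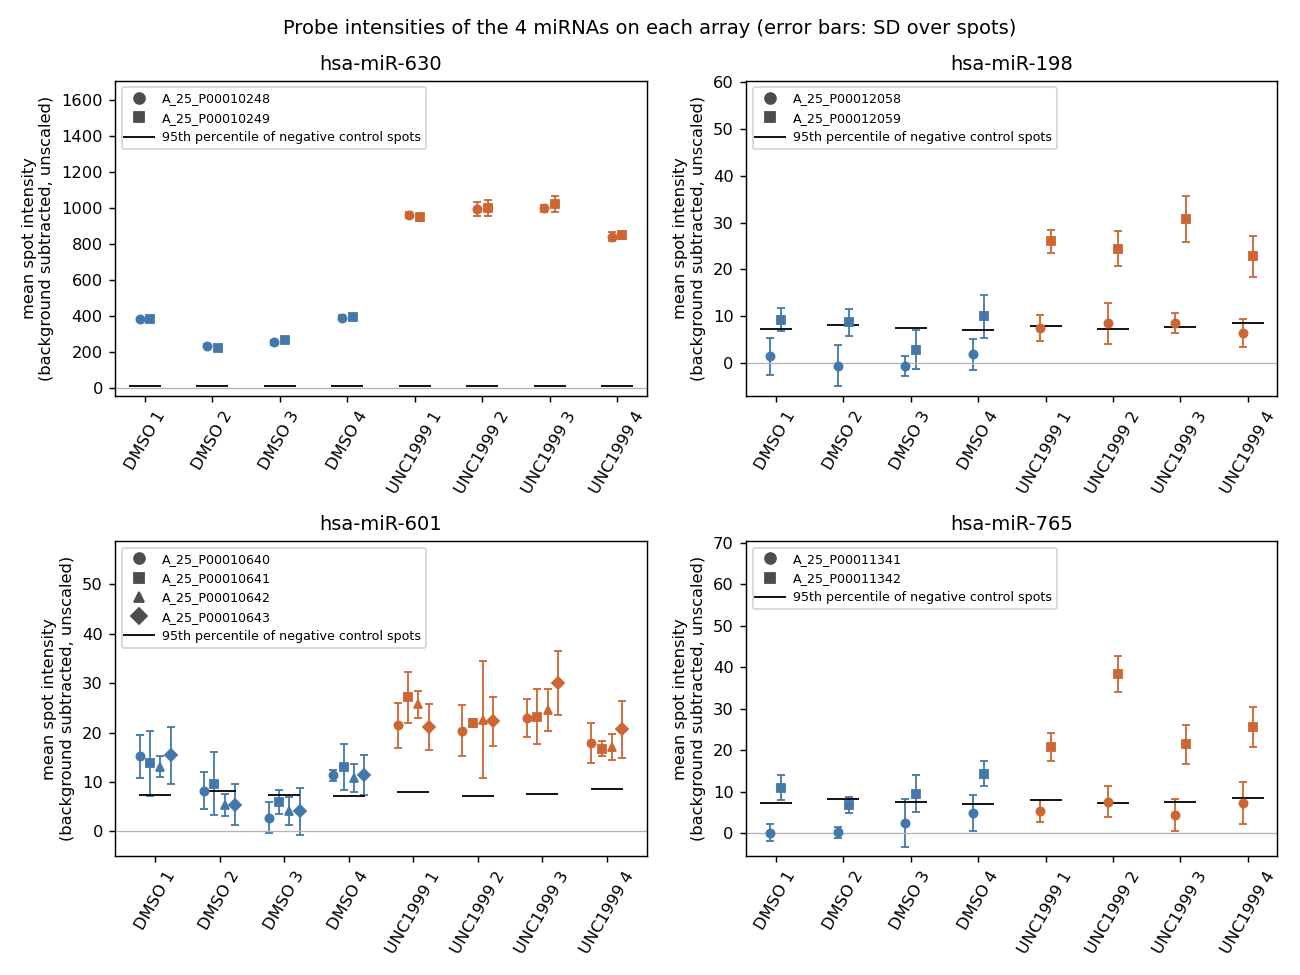
Unscaled mean spot intensity of each probe (vertical axis, background subtracted) on the 4 DMSO arrays (blue) and the 4 UNC1999 arrays (orange), with SD over the spots of a probe as error bars and the 95th percentile of the negative control spots of each array as a black dash. The miR-630 probes read 219.5 to 393.4 on the DMSO arrays and 837.2 to 1022 on the UNC1999 arrays. After UNC1999, 1 probe each of miR-198 and miR-765 stays near the control dash, which is taken over single spots and not over means.

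The same spots were also set against the local background, the ring around each spot, with no other correction. The median spot of miR-198 stood 32.8, 29.8, 28.5 and 31.0 above its ring on the DMSO arrays and 41.5, 41.5, 48.0 and 37.5 on the UNC1999 arrays. The 7 markers of other tissues, which were not detected, stood 21.5 to 31.2 above theirs after DMSO and 20.8 to 29.8 after UNC1999, so that the ring alone does not mark a signal on these arrays. The DMSO values of miR-198 lay in or just above that range and the UNC1999 values all lay above it. The median spot of miR-601 stood 32.0 to 39.5 above its ring after DMSO and 41.5 to 51.0 after UNC1999, and that of miR-765 29.0 to 36.2 and 37.8 to 47.8. The ring itself was a little darker after UNC1999, with array medians of 24.5 to 28.0 against 28.0 to 29.5, and its part in these differences was not tested.

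**Figure D2:**
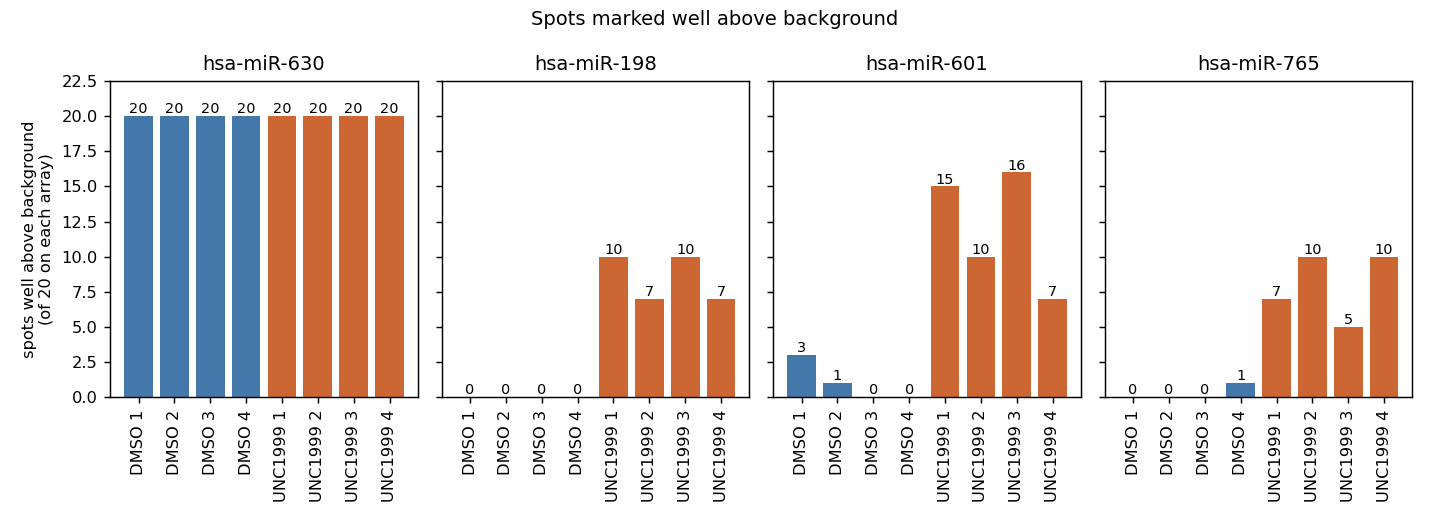
Number of spots that the scanner software marked well above background, of 20 for each miRNA on each array (vertical axis), for the 4 DMSO arrays (blue) and the 4 UNC1999 arrays (orange). MiR-630 has 20 on every array, while the other 3 miRNAs have 0 to 3 on the DMSO arrays and 5 to 16 on the UNC1999 arrays.

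To compare arrays of unequal brightness, each was divided by its 75th percentile, values under 8.98 were set to that floor, and the log2 was used. On this log2 scaled signal miR-630 read 9.70, 9.39, 9.82 and 9.50 on the DMSO arrays and 10.49, 10.51, 10.48 and 10.67 on the UNC1999 arrays. The groups stayed apart, with means of 9.60 ± 0.19 (SD, n = 4) and 10.54 ± 0.09 and a log2 fold change of 0.94 ± 0.12 (standard error of the limma fit), or 1.91-fold. The second principal component put DMSO arrays 1 and 4 with UNC1999 arrays 1 and 3 on 1 side and the others on the other side, and the difference was 0.89 and 0.98 within these sides. It was 1.14 and 0.67 within rows 1 and 2 of the slide. Row 1 held 3 DMSO arrays and 1 UNC1999 array and row 2 the reverse, so that each value within a row rests on 1 array of a group.

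MiR-198 read 3.54, 3.59, 3.17 and 3.45 on the DMSO arrays, the third of these at the floor, and 4.66, 4.59, 4.81 and 4.82 on the UNC1999 arrays. The groups did not overlap, with means of 3.44 ± 0.19 (SD, n = 4) and 4.72 ± 0.11 and a log2 fold change of 1.28 ± 0.12 (standard error). Since miR-198 was not detected on any DMSO array it has a bound there, of at least 1.74-fold higher in this setting. The bound was taken against the higher of its own signal and the lowest signal of a detected miRNA on each DMSO array. On DMSO arrays 1 and 4 its own signal was the higher, so that the bound has no margin there. Some other ways of processing gave smaller differences, listed below, which the bound does not cover. Later values given as at least so many fold were taken in the same way. The difference of miR-198 was 1.29 and 1.52 within rows 1 and 2, and 1.24 and 1.33 within the sides of the second principal component.

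MiR-601 read 5.97, 5.41, 4.89 and 5.43 on the DMSO arrays and 6.17, 6.0, 6.16 and 6.13 on the UNC1999 arrays. The highest DMSO value and the lowest UNC1999 value were close, and the spread was wider after DMSO, with means of 5.42 ± 0.44 (SD, n = 4) and 6.11 ± 0.08 and a log2 fold change of 0.69 ± 0.19. After scaling the groups overlapped in 2 of its 4 probes, A_25_P00010640 and A_25_P00010643. Against DMSO arrays 1 and 4 alone the log2 fold change was 0.41 ± 0.15, and it was 0.53 and 1.22 within rows 1 and 2 and 0.46 and 0.92 within the sides of the second principal component.

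MiR-765 read 3.60, 3.35, 4.38 and 4.15 on the DMSO arrays and 4.30, 5.07, 4.20 and 4.99 on the UNC1999 arrays. Here the groups overlapped, since scaling multiplied DMSO array 3 by 1.75 and UNC1999 arrays 1 and 3 by 0.755 and 0.710, with means of 3.87 ± 0.48 (SD, n = 4) and 4.64 ± 0.45 and a log2 fold change of 0.77 ± 0.26. It was 1.29 and 0.14 within rows 1 and 2, and 0.38 and 1.16 within the sides of that component. The call of miR-765 as higher was lost without DMSO array 2, without UNC1999 array 2 or without UNC1999 array 4, with values of 0.60 to 0.94 when any 1 array was left out, and with the row as a block, at 0.71 ± 0.32.

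**Figure D3:**
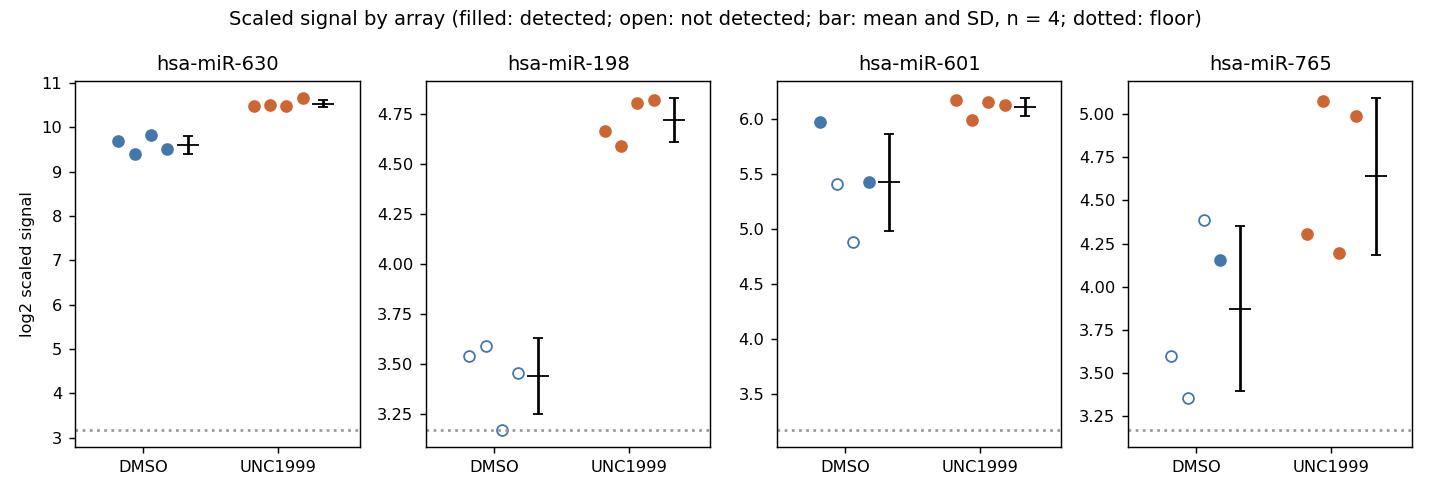
Log2 scaled signal (vertical axis) of each miRNA on the DMSO and UNC1999 arrays, with filled points where the miRNA was called detected, open points where it was not, the group mean and SD (n = 4) as a bar, and the floor as a dotted line. The groups are apart for miR-630, miR-198 and miR-601 and overlap for miR-765.

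The limma fit took in the 456 miRNAs that all arrays of either group detected, and called those with a fold change of 1.2 or more and an adjusted p of 0.05 or less. The 4 miRNAs were all called higher. Of all miRNAs tested 70.6% were called, 36.0% as higher and 34.6% as lower, and in 32.7% the UNC1999 arrays lay above the DMSO arrays without overlap, as they did for 3 of the 4. The miRNAs were chosen by this contrast, and nothing is read from their count. The list had a median log2 fold change of 0.85, against 0.01 over all 456.

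MiR-198, miR-601 and miR-765 passed the filter through the UNC1999 arrays alone, as did 100 miRNAs, or 3.92% of all 2549, while 10 miRNAs, 0.392%, passed through the DMSO arrays alone. A miRNA that passes in this way had to be detected more often in 1 group. Of the 100, 20 were detected on 0 DMSO arrays like miR-198, 11 on 1 like miR-765 and 55 on 2 like miR-601. Their median log2 fold change was 0.51, with 56 called higher and 10 lower, while the 346 miRNAs detected on all 8 arrays, to which miR-630 belongs, had a median of -0.14, with 108 higher and 138 lower.

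**Figure D4:**
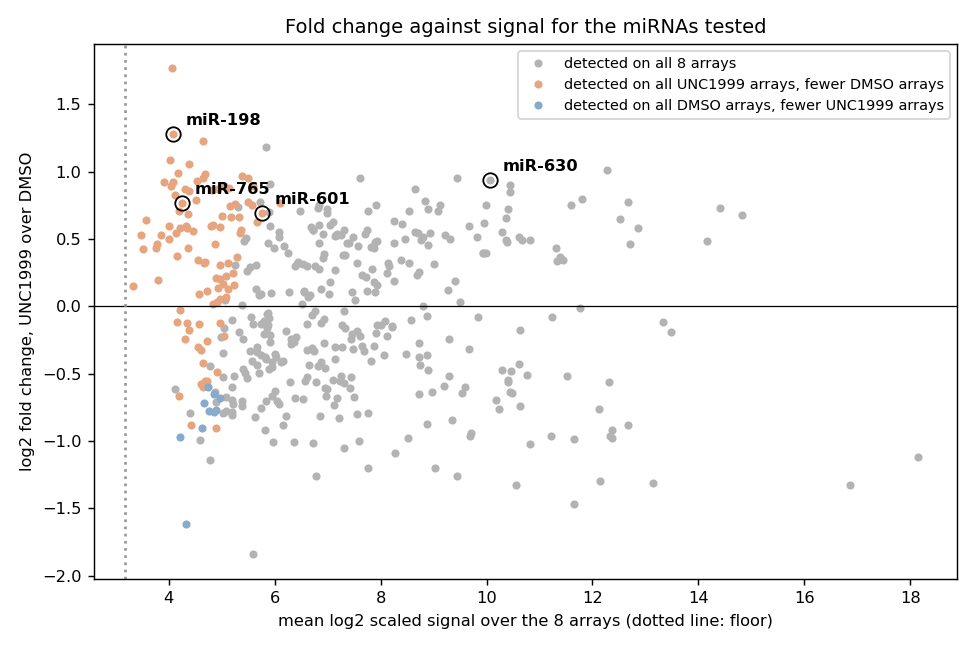
Log2 fold change of UNC1999 over DMSO (vertical axis) against the mean log2 scaled signal over the 8 arrays (horizontal axis) for the 456 miRNAs tested, coloured by the arrays on which they were detected, with the 4 miRNAs ringed. MiR-198, miR-601 and miR-765 lie at the dim end among the miRNAs that passed through the UNC1999 arrays alone, and miR-630 lies among those detected on all 8 arrays.

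The differences of miR-198, miR-601 and miR-765 depended on how background was treated, and that of miR-630 did not change direction under any setting tried. With normexp, which models background from the spot and its ring and here adds an offset of 50, followed by the same scaling, the log2 fold change was 0.95 for miR-630, -0.26 for miR-198, -0.29 for miR-601 and -0.27 for miR-765. In that setting 11.8% of the miRNAs tested were called higher, the median of all 456 was -0.29, and 0 of the 100 that passed through the UNC1999 arrays alone were above 0. Without the scaling step the normexp values were 1.41, 0.15, 0.18 and 0.13 in the same order, so that the sign of the last 3 turned with the scaling of values that already held the offset. There 29.8% of all miRNAs were called higher. With no scaling of the background-subtracted intensities the values were 1.63, 1.63, 1.39 and 1.31, beside a median of 0.67 over all 456, and the 4 were called higher where 51.3% of all miRNAs were.

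The probes of a miRNA can also be averaged on the log2 scale in place of being summed, with a floor of 16.3 for each probe. The log2 fold change of miR-630 was 0.94 in that setting, that of miR-198 0.16, that of miR-601 0.090 and that of miR-765 0.17, and the call as higher was kept by miR-630 alone, with 25.4% of all miRNAs called higher. For miR-198 and miR-765 the probe without marked spots lay under this floor on every array.

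For miR-198, miR-601 and miR-765 the largest differences were those of the processed log2 values that the authors deposited. For miR-198 it lists -3.31, -3.13, -3.13 and -3.31 on the DMSO arrays and 0.36, 0.40, 0.76 and 0.72 on the UNC1999 arrays, a difference of 3.78. The DMSO entries lie at or near the log2 of 0.1, the value the scanner software writes for a miRNA it does not detect, and so they hold no measured level. The same holds for miR-601 on DMSO arrays 2 and 3, both at -3.13, with 0.86 and -1.20 on the others, 2.11 to 2.33 on the UNC1999 arrays and a difference of 3.90, and for miR-765 on DMSO arrays 1 to 3, at -3.31 to -3.13, with 0.056 on the fourth, 0.22 to 0.89 after UNC1999 and a difference of 2.94. MiR-630, which has a measured value on every array, had 6.53 to 7.10 after DMSO, 7.74 to 7.93 after UNC1999 and a difference of 1.07.

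**Figure D5:**
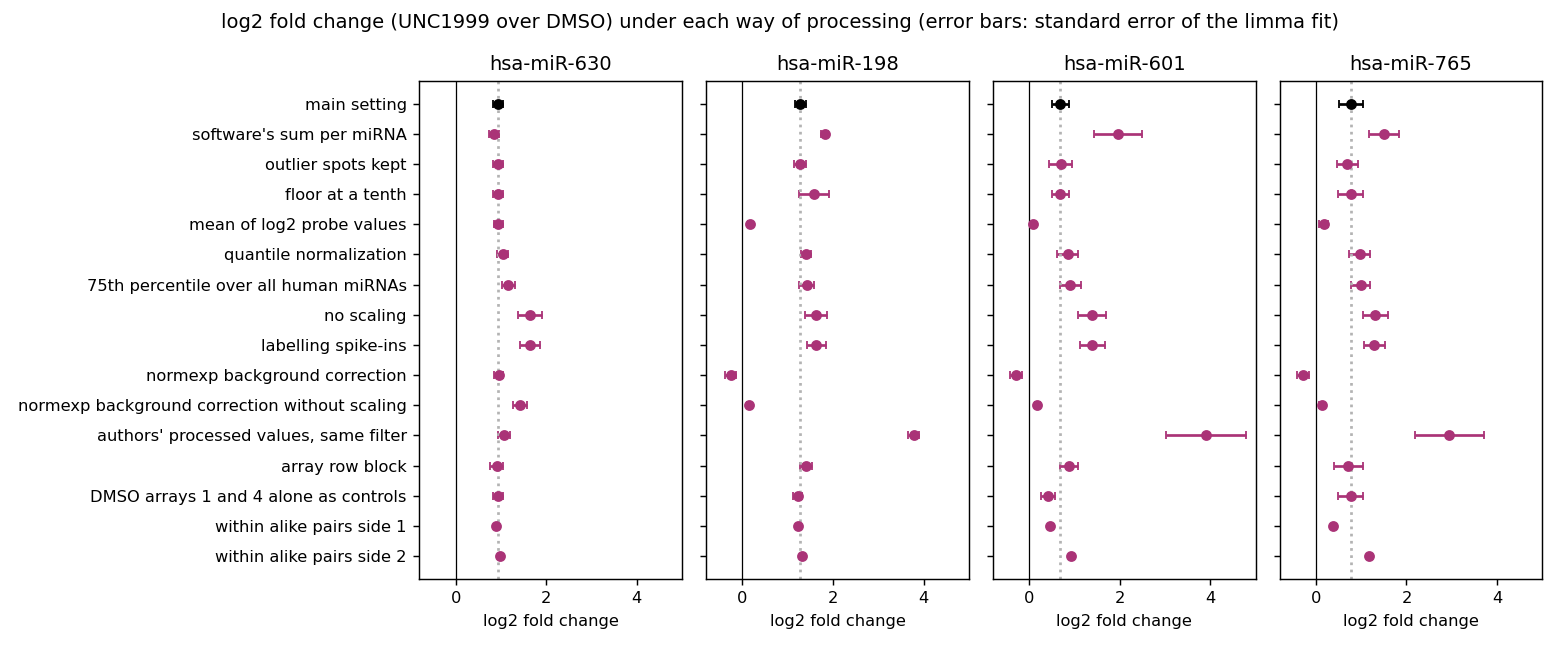
Log2 fold change of UNC1999 over DMSO (horizontal axis) for each miRNA under each way of processing (rows), with the standard error of the limma fit as a bar where there is one and a dotted line at the main value. MiR-630 ranges from 0.85 to 1.64 in this plot, while miR-198, miR-601 and miR-765 fall below 0 with normexp and scaling and lie at 3.78, 3.90 and 2.94 in the authors' processed values.

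The study lists 5 further miRNAs as higher after UNC1999 with a link to DNA methylation or to demethylating drugs, and they too were chosen on these arrays. All 5 were called higher, where 36.0% of all miRNAs were. MiR-877-5p, detected on 0 DMSO arrays and 4 UNC1999 arrays, was at least 1.58-fold higher, with 1 of 80 spots well above background after DMSO and 6 of 80 after UNC1999. The other 4 were detected on all 8 arrays. Their log2 fold changes were 0.30 ± 0.09 for miR-125a-3p, 0.51 ± 0.09 for miR-320c, 0.75 ± 0.16 for miR-1290 and 1.18 ± 0.19 for miR-223-3p, a miRNA best known from myeloid cells. With normexp and scaling they were -0.17, 0.56, 0.63 and 0.04 in this order, and miR-877-5p read -0.36, so that miR-125a-3p and miR-877-5p changed sign as miR-198, miR-601 and miR-765 did. In that setting 2 of the 5 were called higher, where 11.8% of all miRNAs were, and 1 lower, where 50.4% were. When probes were averaged on the log2 scale, miR-877-5p lay at the floor on every array.

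A list of 29 miRNAs on the array that are known to be silenced by DNA methylation in other cancers was looked at beside these. Of the 29, 22 were detected on 0 arrays, as the miR-124 arms, miR-137 and miR-203a-3p were, 1 on a single DMSO array, and 6 were tested. Of the 6, 1 was called higher, where 36.0% of all miRNAs were, and 3 lower, where 34.6% were, with a median log2 fold change of -0.35. The sign of that median turned with the scaling, to 0.35 with no scaling, where 1 was called higher and 0 lower. There 51.3% of all miRNAs tested were called higher and 0.877% lower. The median over all miRNAs tested was 0.01 with scaling and 0.67 without, so that the median of the list lay below it both times. MiR-193a-3p was detected on 0 DMSO arrays and all UNC1999 arrays and so passed the filter through the group where it is high. For that reason no p is given for it. It was at least 1.13-fold higher, a bound under the 1.2-fold threshold of the call. It read -0.28 with normexp and scaling. When probes were averaged on the log2 scale it lay at the floor on every array, so that setting cannot show a difference for it. MiR-148a-3p was lower, at -1.30 ± 0.22. The study already lists miR-148a as lower after UNC1999 on these arrays and as overexpressed in MM, so no p is given for it. Also lower were miR-9-5p, at -0.88 ± 0.22 (limma, adjusted p = 0.0052), and miR-34a-5p, a target of p53, at -0.52 ± 0.20 (limma, adjusted p = 0.042). Without scaling they read -0.60, -0.18 and 0.18, all below the median of 0.67 over all miRNAs tested. MiR-9-3p and miR-192-5p were tested and not called, at -0.19 ± 0.14 and -0.12 ± 0.15. MiR-192-5p was detected on 2 DMSO arrays and 4 UNC1999 arrays, and so passed the filter through the UNC1999 arrays alone.

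The miRNAs whose log2 scaled signal ran most like that of each member over the 8 arrays were named by Pearson correlation, which holds the difference between the groups and the shared brightness of the arrays. For miR-630 they were miR-5703 (r = 1.00) and miR-7150 (r = 0.99), both detected on all arrays, with log2 fold changes of 0.95 and 0.90. For miR-198 they were miR-6774-5p (r = 0.99) and miR-6846-5p (r = 0.97), at least 1.35-fold and 1.477-fold higher, both detected on 0 DMSO arrays and 4 UNC1999 arrays as miR-198 was. For miR-601 they were miR-4496 (r = 0.94) and miR-7845-5p (r = 0.93), at 0.77 and 0.89, both detected on 2 DMSO arrays and 4 UNC1999 arrays. For miR-765 they were miR-4515 (r = 0.95) and miR-483-5p (r = 0.91), at 0.28 and 0.57 and detected on all arrays. The nearest companions of 3 of the 4 thus shared the detection pattern of the member, and those of miR-765 did not.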

How the data were processed

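The 8 single-colour arrays, 4 per group, lay on 1 slide and were hybridized with RNA of INA-6 cells. The authors deposited, per the file headers, the output of Agilent Feature Extraction 10.7.3.1, in which each spot has an intensity less its background, with no normalization across arrays, beside the software's detection calls and marks. A second deposited table holds the authors' processed log2 values of 2042 features. The genome build in the scanner headers differs from that of the RefSeq tables, from which names, sequences and positions were taken.

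From the spots, probe means without outlier spots (1392 to 2292 of 53144 per array) were summed per miRNA, divided by the array's 75th percentile (taken over the 346 miRNAs that every array detected) and rescaled by the geometric mean of the 8 percentiles. Low values were raised to a floor, for which the lowest scaled signal among detected miRNAs was found on each array and the median taken, and log2 followed. Of the members' values 1 lay at the floor, that of miR-198 on a DMSO array. limma 3.58.1 in R 4.3.3 was fitted without a block to the 456 human miRNAs that all arrays of either group detected, with Benjamini-Hochberg adjustment over all of them. Thresholds are those of the array methods, applied to the adjusted p. The limma fit was tested on simulated log2 signals.

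The members, lists and tests were chosen with earlier results of these data known. Named are the members, the 5 further miRNAs of the study's list, for each member the 2 miRNAs with the highest correlation, called miRNAs of the other lists and seed sharers. Alternatives were other summaries, background corrections, scalings, floors and filters, the authors' values, other variance models and blocks, a paired test by replicate number as in the statistics section, and leaving out each array. Normexp without scaling and DMSO arrays 1 and 4 alone were added after seeing the data. Precision is limited by the number of arrays. P-values measure the spread between these samples.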

Additional observations from a re-analysis of the deposited data

Results flagged for a closer look

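Of 28 groups of 4 values checked for a single distant array (the members' log2 scaled signals and their probes), 2 had one, and chance gives 1.4. The log2 scaled signal of miR-630 on UNC1999 array 4 was 10.67, apart from 10.48 to 10.51 on the other UNC1999 arrays, although the unscaled sum of that array, 1682, was the lowest of its group. Probe A_25_P00010643 of miR-601 read 30.0 on UNC1999 array 3, apart from 20.6 to 22.2 on the others.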

How the results depend on the processing

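The count of called miRNAs, 322, was 141 with normexp and no scaling, 206 with the authors' values of every feature, 195 with no filter on detection, and 152 with the paired test of the statistics section after Benjamini-Hochberg adjustment (236 before). Those called higher were 54 of 284 with normexp and scaling, 192 of 280 with the percentile over all human miRNAs, 234 of 238 without scaling, 256 of 263 with labelling spike-ins and 71 of 195 with no filter. Of the members, 1 was called higher with normexp and scaling (11.8% of all miRNAs) and 1 with normexp and no scaling (29.8%). When probes were averaged on the log2 scale it was also 1 (25.4%). With no filter 2 were called higher (miR-630 and miR-198, beside 2.79%), and with the slide row as a block 3. The count was 4 under each other setting for which it was made, leave-one-out aside. Members were not counted for the paired test.

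For miR-630 the log2 fold change was 1.41 with normexp and no scaling, 1.16 with the percentile over all human miRNAs, 1.63 without scaling, 1.64 with spike-ins, and 1.14 and 0.67 within rows 1 and 2. For miR-198 it was 1.81 with the software's sum, -0.26 with normexp, 0.15 with normexp and no scaling, 1.63 without scaling, 1.63 with spike-ins, 1.59 with the floor at 0.1 of its value, 0.16 with the mean of log2 probe values, 3.78 in the authors' values and 1.52 within row 2. For miR-601, in that order without the floor, it was 1.96, -0.29, 0.18, 1.39, 1.40, 0.090, 3.90 and 1.22, and for miR-765 1.51, -0.27, 0.13, 1.31, 1.29, 0.17 and 2.94, with 1.29 and 0.14 within rows 1 and 2. Normexp adds its offset before scaling, by construction. The cause of the other shifts was not tested.

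Leaving out 1 array gave 292 to 326 called miRNAs, 3 to 4 members called higher, and log2 fold changes of 0.87 to 1.01 for miR-630, 1.19 to 1.33 for miR-198, 0.51 to 0.87 for miR-601 and 0.60 to 0.94 for miR-765. The replicate block gave 308 called miRNAs and 4 members, with the members' values the same. The deviations of same-numbered arrays from their group means had correlations of 0.18, 0.27, -0.42 and -0.39. These cannot tell whether the numbers pair the samples, because the deviations within each group followed the sides of the second principal component. Signal near background limits miR-198, miR-601 and miR-765.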
